A study of Danio rerio with 6 samples.

Results

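The genes described here encode the proteins of the cytosolic ribosome, in the fin fold of zebrafish larvae. They were found by name: every row of the deposited count table named rpl or rps with a number and at most one of the letters a, x, y or l, the stalk genes rplp0, rplp1 and rplp2, and rpsa, with the S6 kinase genes left out. This gave 75 of the table's 32266 rows, 31 for the small (40S) subunit and 44 for the large (60S) subunit, of which 3 are stalk genes. The 75 rows carry 74 different names, because 2 rows are named rpl37. The one of these with few counts may not be a ribosomal protein gene, as described below. All 75 passed the filter on low counts.

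RNA sequencing compared fin folds 4 h after amputation with uncut fin folds, in larvae aged 3 days by the series' design text, with 3 libraries in each group. The labels name no genotype, strain or drug, and the short sample names of both groups contain the letters DMSO, a solvent. The fold is a thin sheet of epidermis over mesenchymal cells. Its RNA was sequenced in bulk, so fewer cells of a type and less RNA per cell cannot be told apart. Amputation removes part of the fold, so the groups may also differ in the tissue they hold, which was not tested. The labels do not say whether the replicates were separate sets of larvae, and p-values therefore measure the spread between these libraries, which may be technical.

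A ribosome is built in the nucleolus and cytoplasm from ribosomal RNA and about one copy of each ribosomal protein. Transcripts of ribosomal protein genes are among the most abundant of a cell, and in vertebrates they begin with a terminal oligopyrimidine (TOP) tract, through which their translation is controlled together, downstream of the growth kinase mTOR. A second set of genes, those for nucleolar assembly factors, makes and carries the parts of the ribosome but does not stay in it.

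Library totals ran between 18595152 and 21128093 counts in amputated folds, and between 11216130 and 23019556 counts in uncut folds. Uncut replicate 1 stood apart in the genes described here once libraries were scaled by TMM, which sets the bulk of genes level between libraries. On that scale 74 of the 75 had their highest level of all 6 libraries there, while 20.1% of all tested genes did. As a share of library totals the family was highest in amputated replicate 1, at 6.52% against 6.25% in uncut replicate 1. Results that rest on uncut replicate 1 are given with and without it. The 11 fin fold markers found of 12, among them the actinotrichia genes and1 and and2 and the epidermal genes krt4 and tp63, had counts in every library. Their summed level was 60300 to 69500 CPM (counts scaled to a common library size) in amputated folds and 109000 to 125000 CPM in uncut folds. Most of that sum lay in krt4, and2, and1 and krt5. In the edgeR test described below, 9 of the 11 were called lower and none higher. Not called were cdh1 and epcam, with log2 fold changes (amputated over uncut) of 0.17 and −0.21. Of all tested genes 19.6% were called lower and 20.8% higher. The summed level of 19 leukocyte markers moved the other way. It was 244 to 282 CPM in amputated folds and 110 to 145 CPM in uncut folds, and no marker was at 0 in any library. In the same test 17 of these were called higher, while mpeg1.2 fell by 0.615 on the log2 scale and cxcr4b was not called. Summed muscle markers stood at 576 to 644 CPM in amputated folds and 713 to 988 CPM in uncut folds, with the highest value in uncut replicate 1, and summed markers of neurons at 2.32 to 3.79 CPM in amputated folds and 2.09 to 4.02 CPM in uncut folds. Erythrocyte markers ranged over 71.1 to 125 CPM in amputated folds and 56.1 to 146 CPM in uncut folds. Their part in the values that follow was not tested.

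The share of library counts in ribosomal protein genes overlapped between the groups. They held 6.52%, 5.97% and 6.11% of the counts in amputated replicates 1, 2 and 3, and 6.25%, 5.33% and 5.25% in uncut replicates 1, 2 and 3. Counting error was small beside these differences, with exact 95% binomial intervals (Clopper-Pearson) of 5.96 to 5.98% in amputated replicate 2 and 5.24 to 5.27% in uncut replicate 3. Uncut replicate 1 lay above amputated replicates 2 and 3. The mean share was 6.20 ± 0.282% after amputation and 5.61 ± 0.555% in uncut folds (SD, n = 3 each), a difference of 0.588 percentage points (two-sided exact permutation test, p = 0.3, where 0.1 is the smallest p that 3 against 3 allows). Within replicate numbers 1, 2 and 3 the share was higher in the amputated library by 0.264, 0.640 and 0.861 points (exact sign-flip p = 0.25, the smallest that 3 pairs allow). Without uncut replicate 1 the difference was 0.908 points, and every amputated library lay above both remaining uncut libraries.

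The share depends on what else is in the library. The 3 genes with the most counts, col1a1a, krt4 and and2, took 9.92%, 9.25% and 10.2% of the counts in amputated replicates 1, 2 and 3 and 14.9%, 15.1% and 15.8% in uncut replicates 1, 2 and 3. With these 3 genes left out of the total, the ribosomal protein share was 6.87 ± 0.331% after amputation and 6.62 ± 0.627% in uncut folds (SD, n = 3 each), 0.255 points apart (exact permutation p = 0.6). Against library sizes scaled by TMM, which sets the bulk of genes level between libraries, the share was 5.68 ± 0.371% after amputation and 6.14 ± 0.745% in uncut folds (SD, n = 3 each), a difference of −0.467 points (exact permutation p = 0.4). The sign of the difference thus turned with the scaling, and no direction is given for the family as a whole.

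The balance between the subunits was close to constant. Summed counts of the 40S genes were 0.693, 0.689 and 0.685 of those of the 60S genes in amputated replicates 1, 2 and 3, and 0.689, 0.692 and 0.688 in uncut replicates 1, 2 and 3. The groups overlapped, and the means were 0.6892 ± 0.00381 after amputation and 0.6896 ± 0.00220 in uncut folds (SD, n = 3 each; exact permutation p = 0.9). This ratio needs no scaling between libraries, and uncut replicate 1 did not stand apart in it.

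**Figure D1:**
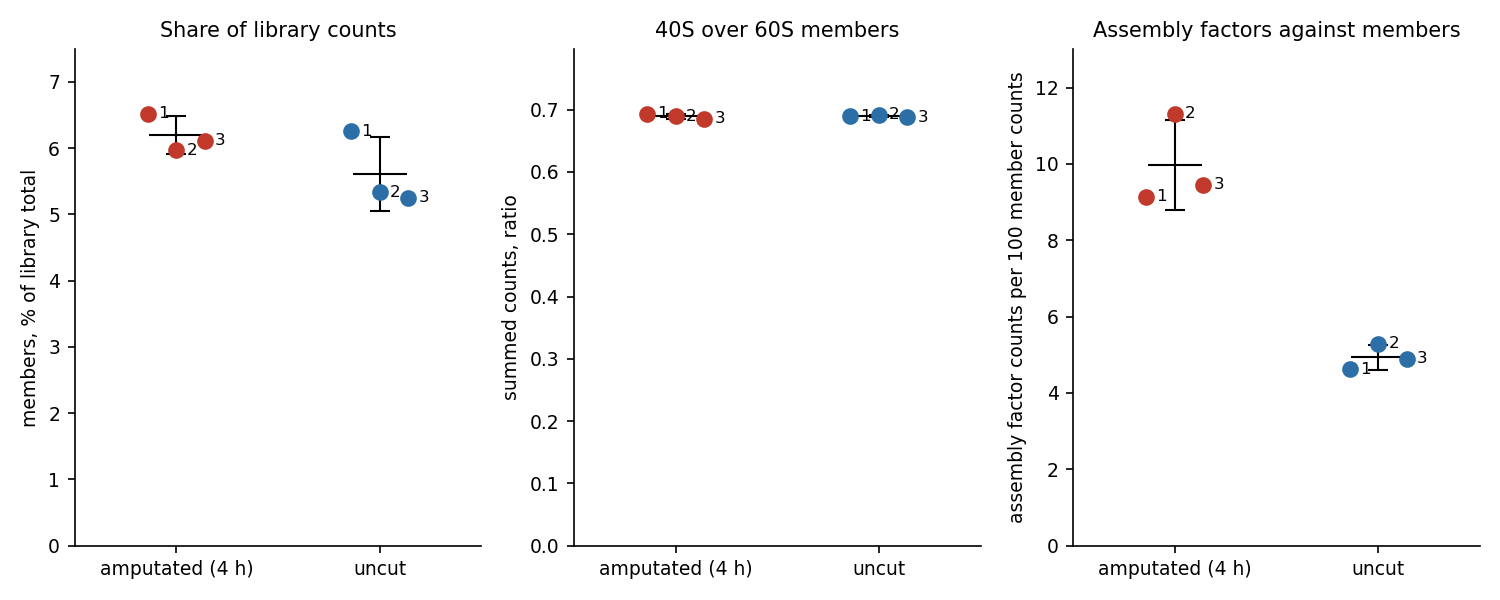
Each dot is 1 library with its replicate number, and bars give the mean and SD of the 3 libraries of amputated and uncut folds. The left panel plots the percent of library counts in the 75 ribosomal protein genes (5.97 to 6.52% after amputation, 5.25 to 6.25% in uncut folds), the middle panel the ratio of summed 40S to 60S counts, near 0.69 in every library, and the right panel the counts of 70 nucleolar assembly factors per 100 ribosomal protein counts, where the groups do not overlap.

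The change of single genes was small and nearly the same for all. In edgeR's quasi-likelihood test over 17883 genes, none of the 75 had a p under 0.05 after Benjamini-Hochberg adjustment over all of them, while 40.4% of all tested genes were called. At an unadjusted p under 0.05 there were 4 genes, and DESeq2 called 1, rplp2, as lower. With 1 library left out, edgeR called rplp2 lower without amputated replicate 1 and rpl5a lower without uncut replicate 2. In the authors' deposited table, none of the 72 ribosomal protein genes with an adjusted p was under 0.05, the lowest being 0.0512 for rps26. The other 3, rpl37, rpl38 and rplp1, have no p there. The median log2 fold change, amputated over uncut, was −0.12 for the 75 genes, 0.00 for all tested genes and −0.11 for the 1489 other tested genes whose mean reached 100 CPM. Without uncut replicate 1 the median of the ribosomal protein genes was −0.00. With libraries scaled by their totals alone the median was 0.14, against 0.26 for all tested genes and 0.14 for the 1489.

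A p above the threshold does not show that a gene is unchanged, so the intervals are given. For 72 of the 75 genes the 95% interval of the log2 fold change lay between −0.5 and 0.5. The exceptions were rpl5a and rplp2, whose intervals reached −0.68 and −0.51, and the second row named rpl37 (−0.51 to 0.39), which had few counts. With TMM, groups of CPM values did not overlap for 2 genes, rpl19 and rps26, both lower after amputation. On that scale 24.1% of all tested genes had groups that did not overlap in that direction. None of the 75 was higher without overlap with TMM, against 26.9% of all tested genes. With library totals, the log2 fold changes of rpl19 and rps26 were 0.03 and 0.05.

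**Figure D2:**
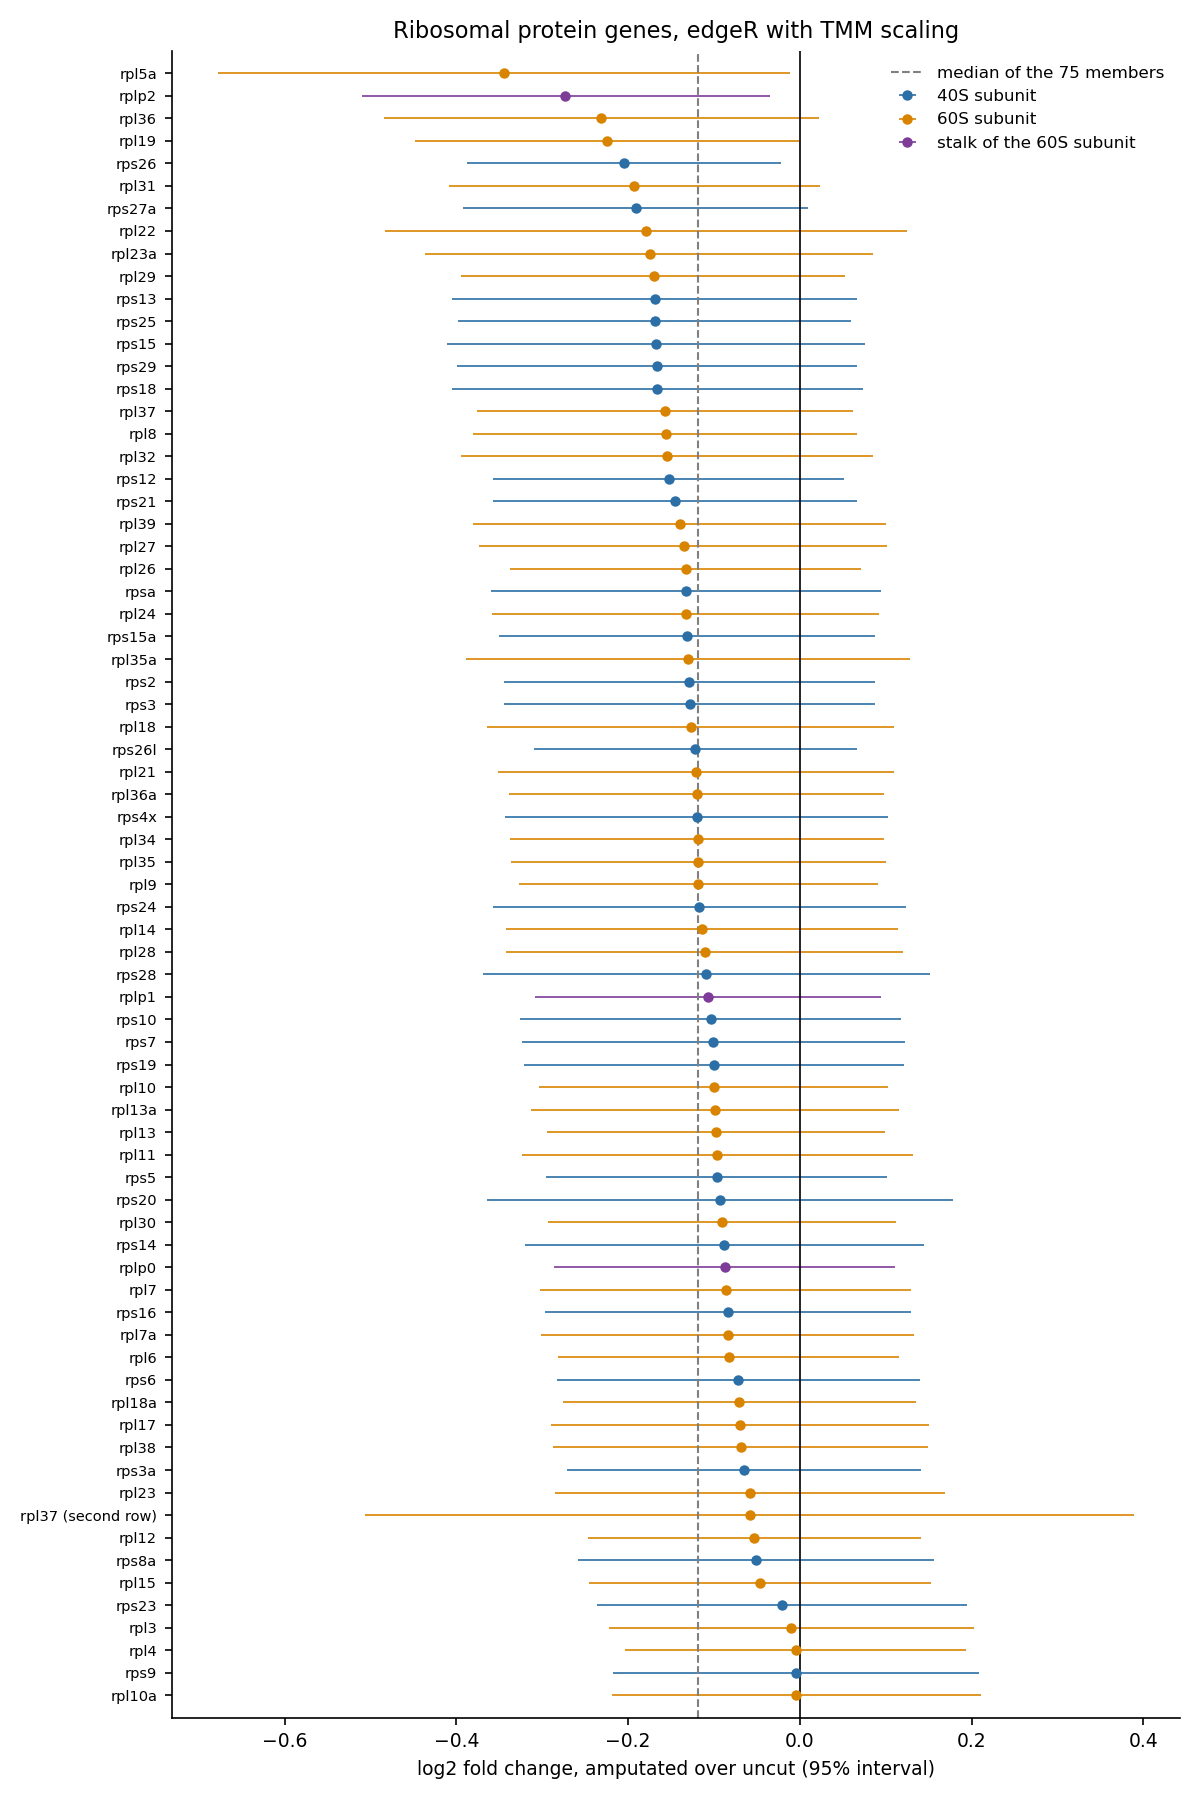
Log2 fold change, amputated over uncut, of 73 of the 75 ribosomal protein genes with its 95% interval from edgeR after TMM scaling, sorted from the most negative and coloured by subunit. The points span −0.35 (rpl5a) to −0.00 (rpl10a) around the dashed median of all 75, −0.12, which is 0.14 with library totals alone, and most intervals cross 0.

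The genes differed little from one another. The interquartile range of their log2 fold changes was 0.067, with all values between −0.35 and −0.00. It was 0.655 for all tested genes and 0.581 for the 1489 other genes that reached 100 CPM. The median standard error of a ribosomal protein gene was 0.10, which is wider than the spread among the genes. That error includes shifts between libraries that the genes share, so it does not measure the noise in differences among them. The genes also moved together between libraries of the same group. In log2 of TMM-scaled CPM, the middle of the family lay 0.26 above the genes' own means in uncut replicate 1. It lay 0.14 below them in amputated replicate 2, with −0.05 in both other uncut libraries, 0.04 in amputated replicate 1 and −0.07 in amputated replicate 3. The interquartile range around that middle was 0.035 to 0.059 in every library but uncut replicate 1, where it was 0.098. For all tested genes the range, computed after adding 0.5 CPM, was 0.325 to 0.422 in the 6 libraries. Those include genes with few counts, where counting error widens the range, while the ribosomal protein genes used had a mean above 1000 counts. No such range is given for other genes with many counts.

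**Figure D3:**
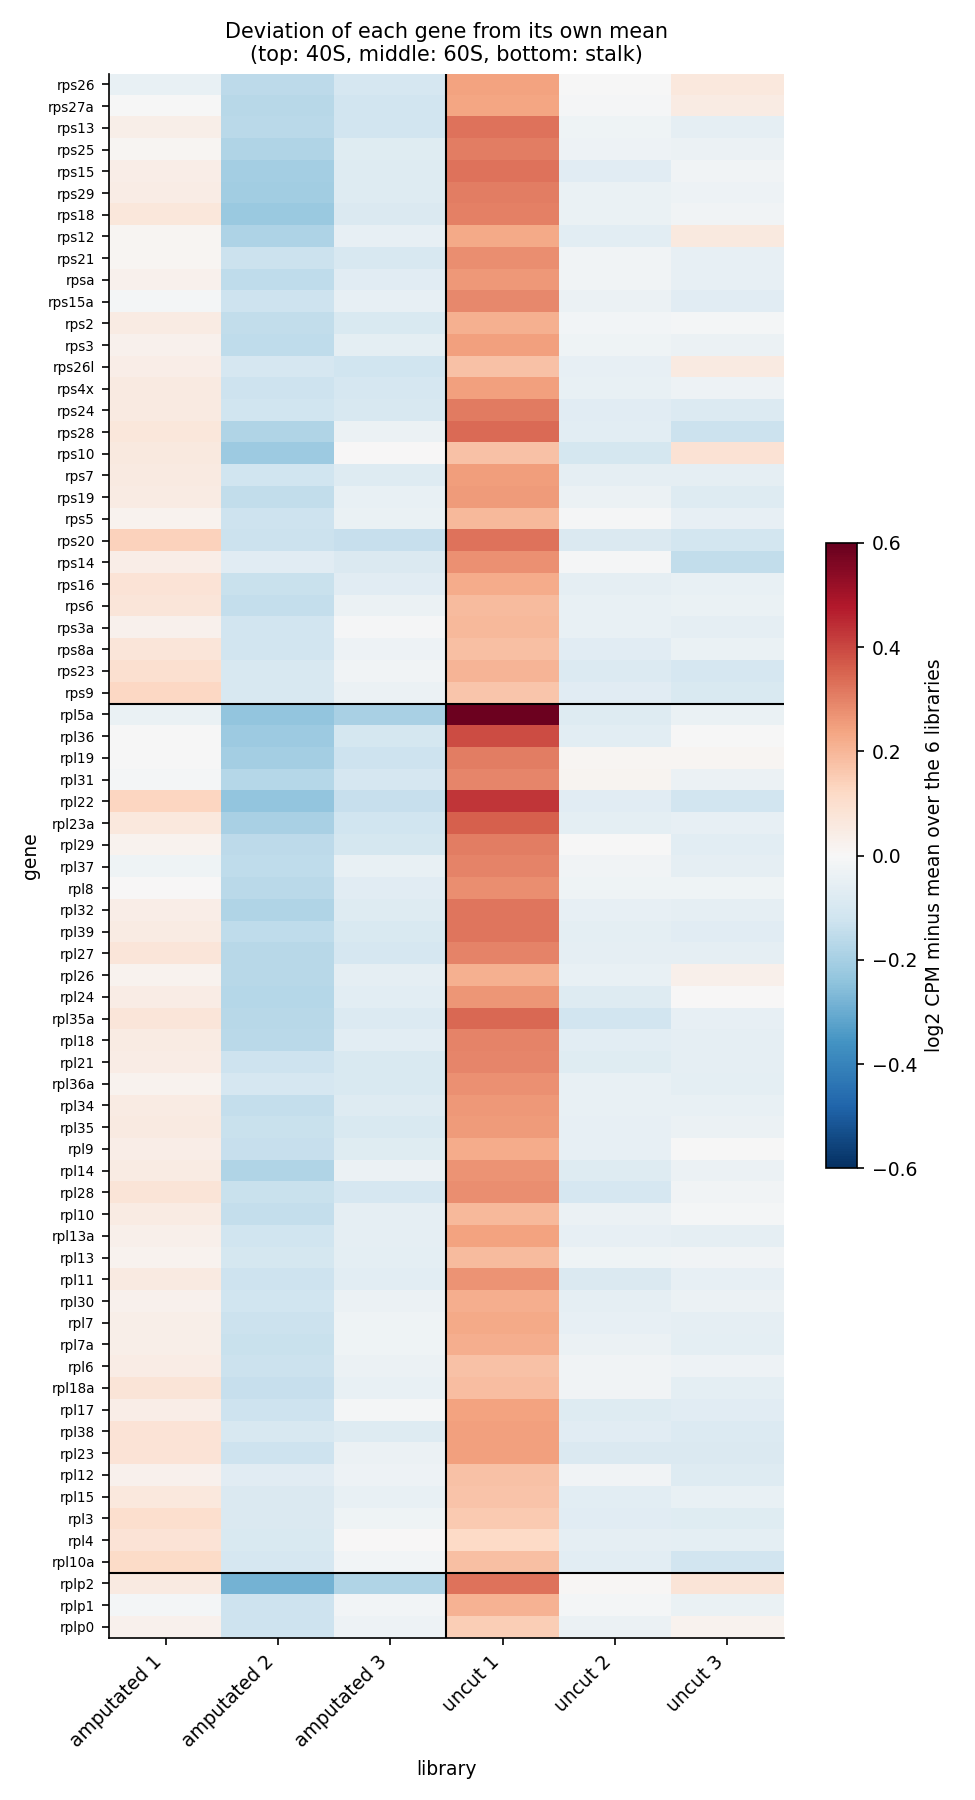
Colour shows the log2 CPM, after TMM scaling, of each gene minus its own mean over the 6 libraries. The 72 ribosomal protein genes drawn have a mean above 1000 counts, with 40S genes on top, then 60S and stalk genes. Whole columns share a colour: nearly every gene is high in uncut replicate 1 and low in amputated replicate 2, and rpl5a in uncut replicate 1 is the strongest single cell (0.59).

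The same-numbered libraries of the groups deviated together, and each amputated library was also set against the uncut library of its number. In these pairs TMM-scaled CPM values were compared for the 74 genes with a mean above 1000 counts. Their median log2 ratio, amputated over uncut, was −0.22, −0.10 and −0.03 for replicates 1, 2 and 3. On this scale all 74 genes were below 0 in replicates 1 and 2, and 47 were in replicate 3. The signs depend on the scaling. Against library totals, the family's share was higher in the amputated library of each pair, by 0.264, 0.64 and 0.861 points. Within 0.1 of the pair's median lay 60, 72 and 65 of the 74 genes. With the replicate number as a block, edgeR called 7 of the 75 lower and none higher, where it called 22.5% of all tested genes lower. The 7 were rpl5a, rplp2, rpl36, rpl19, rps26, rpl31 and rps27a, with log2 fold changes of −0.31, −0.27, −0.22, −0.22, −0.20, −0.19 and −0.19, and edgeR adjusted p values of 0.00274 to 0.0360. When libraries were scaled by their totals, rpl5a and rplp2 were at −0.08 and −0.02 and the other 5 between 0.03 and 0.07. Without uncut replicate 1 and without the block, the 7 were at −0.09, −0.17, −0.07, −0.11, −0.12, −0.08 and −0.11 in the order given, and none was called. None of the 7 was called with all libraries and no block either. The lack of calls therefore does not show whether those made with the block rest on uncut replicate 1.

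To look only at differences among the ribosomal protein genes, libraries were also scaled by the summed counts of these genes themselves. On that scale the log2 fold changes ran between −0.22 and 0.11, and none of the 75 was called. At an unadjusted p under 0.05 there was 1 gene, rpl5a (edgeR adjusted p = 0.119). With the replicate block on the same scale rpl5a was the 1 gene called lower and none was higher. The order of the genes by their share of the family's counts was almost the same in both groups. The Spearman correlation was 0.997 over the 75 genes, a description across genes that share their libraries. Mean counts ran between 62 and 37820, so changes this small could hardly alter the order. The correlation therefore does not bear on how uniform the changes were.

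The genes with the most counts were rps2, rpsa, rplp0, rpl3, rpl7a and rps4x, although counts grow with transcript length and are no measure of level between genes. Together they held 18.2%, 18.3% and 18.2% of the family's counts in amputated replicates 1, 2 and 3 and 17.6%, 18.2% and 18.2% in uncut replicates 1, 2 and 3. The 40S gene rps2 had 2128, 1854 and 1928 CPM in amputated replicates 1, 2 and 3, against 2386, 2035 and 2040 CPM in uncut replicates 1, 2 and 3. Its groups overlapped, and the log2 fold change was −0.13 ± 0.10 (SE; edgeR adjusted p = 0.331). The gene rpsa, whose protein sits in the 40S subunit and is also known as a laminin receptor, averaged 1861 ± 117 CPM after amputation and 2041 ± 249 CPM in uncut folds (SD, n = 3 each). The gene rps4x averaged 1405 ± 96.8 CPM after amputation and 1526 ± 180 CPM in uncut folds (SD, n = 3 each), and rpl7a 1547 ± 91.4 CPM after amputation and 1640 ± 179 CPM in uncut folds. In all 3 the highest library was uncut replicate 1.

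Among the 40S genes, those with known roles outside the subunit's core kept the pattern of the family. The protein of rps6 is the target of the S6 kinases. Its gene averaged 1236 ± 90.5 CPM after amputation and 1300 ± 123 CPM in uncut folds (SD, n = 3 each; log2 fold change −0.07 ± 0.10, SE). The gene rps19, whose human form is mutated in Diamond-Blackfan anaemia, was at −0.10 ± 0.10, and rps14, whose human form is lost in the 5q- syndrome, at −0.09 ± 0.11. The gene rps3, whose protein lies where mRNA enters the subunit, was at −0.13 ± 0.10. None of these 4 had groups that did not overlap, and none was called.

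The 40S genes at the lower end were rps26 and rps27a. The protein of rps26 lies at the mRNA exit. It had 161.8, 150 and 155.5 CPM in amputated replicates 1, 2 and 3, against 197.5, 166.6 and 174.6 CPM in uncut replicates 1, 2 and 3. Every amputated value was below every uncut value, and the log2 fold change was −0.21 ± 0.08 (SE; edgeR adjusted p = 0.0714, and 0.0280 with the replicate block). The gene rps27a, which makes its ribosomal protein as a fusion with ubiquitin, averaged 837 ± 48.3 CPM after amputation and 955.5 ± 85.9 CPM in uncut folds (SD, n = 3 each; log2 fold change −0.19 ± 0.09, SE; edgeR adjusted p = 0.118, and 0.0248 with the block). At the upper end stood rps9 and rps23, whose proteins bear on the accuracy of decoding. For rps9 the log2 fold change was −0.00 ± 0.10 and for rps23 −0.02 ± 0.10 (SE). These 2 were called higher, at 0.25 and 0.24, when libraries were scaled by their totals.

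Leaving the stalk genes aside, the 60S genes with the most negative values were rpl5a, rpl36, rpl19 and rpl31. The protein of rpl5a binds the 5S ribosomal RNA together with the protein of rpl11. Levels of rpl5a (chromosome 2, 10903677 to 10920022 by the authors' table, on a build that no source used here gives) were 1100, 960 and 988 CPM in amputated replicates 1, 2 and 3, against 1700, 1071 and 1100 CPM in uncut replicates 1, 2 and 3. The library that stands out is uncut replicate 1, where rpl5a lay 0.59 above its own mean on the log2 scale, farther than any other of the 74 genes. The log2 fold change was −0.35 ± 0.15 (SE; edgeR adjusted p = 0.0923, and 0.00698 with the replicate block), and −0.09 without uncut replicate 1. Its partner rpl11 had 694, 613 and 640 CPM in amputated replicates 1, 2 and 3, against 806.5, 629 and 645.5 CPM in uncut replicates 1, 2 and 3 (log2 fold change −0.10 ± 0.11, SE). There the groups overlapped, with uncut replicate 1 again the highest.

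The gene rpl19 had 1071, 929 and 982.5 CPM in amputated replicates 1, 2 and 3, against 1326, 1078 and 1080 CPM in uncut replicates 1, 2 and 3. The groups did not overlap, though amputated replicate 1 and uncut replicates 2 and 3 were close (log2 fold change −0.22 ± 0.10, SE; edgeR adjusted p = 0.102, and 0.0125 with the block). The gene rpl36 averaged 347 ± 25.6 CPM after amputation and 407.5 ± 72.8 CPM in uncut folds (SD, n = 3 each), and rpl31, whose protein lies near the exit of the peptide tunnel, 617 ± 33.9 CPM after amputation and 705 ± 88.8 CPM in uncut folds. Their groups overlapped, and their edgeR adjusted p values were 0.134 and 0.142 without and 0.0224 and 0.0360 with the block.

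The 60S genes nearest to 0 were rpl10a, rpl4, rpl3 and rpl15. The proteins of rpl3 and rpl4 reach toward the peptidyl transferase centre and the peptide tunnel, and that of rpl10a forms the L1 stalk. For rpl3 the levels were 1880, 1651 and 1720 CPM in amputated replicates 1, 2 and 3, against 1952, 1672 and 1664 CPM in uncut replicates 1, 2 and 3. The groups covered the same range (log2 fold change −0.01 ± 0.10, SE, with a 95% interval of −0.22 to 0.20). The values of rpl4 and rpl10a were −0.01 ± 0.09 and −0.00 ± 0.10, and that of rpl15 was −0.05 ± 0.09. With library totals alone, edgeR called rpl3, rpl4, rpl10a and rpl15 higher together with rps9 and rps23, 6 of the 75, where it called 38.1% of all tested genes higher.

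Other 60S genes with named roles lay on both sides of the family's median of −0.12. The gene rpl10, whose protein joins the subunit late and in the cytoplasm, averaged 922 ± 62.3 CPM after amputation and 988 ± 87.5 CPM in uncut folds (SD, n = 3 each; log2 fold change −0.10 ± 0.09, SE). The gene rpl13a was at −0.10 ± 0.10. The gene rpl38, which in mouse embryos is needed to translate a set of Hox mRNAs, was at −0.07 ± 0.10. The values of rpl22 and rpl23a were −0.18 ± 0.14 and −0.18 ± 0.12, and uncut replicate 1 stood out, at 503 CPM for rpl22 beside 356 and 345 CPM in uncut replicates 2 and 3. None of these 5 was called, with or without the block.

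The stalk recruits the elongation factors, with the protein of rplp0 at its base and those of rplp1 and rplp2 as its arms. Its base gene rplp0 had 1894, 1702 and 1817 CPM in amputated replicates 1, 2 and 3, against 2057, 1812 and 1882 CPM in uncut replicates 1, 2 and 3. These groups overlapped (log2 fold change −0.09 ± 0.09, SE). The gene rplp1 averaged 990 ± 43.3 CPM after amputation and 1066 ± 103 CPM in uncut folds (SD, n = 3 each; −0.11 ± 0.09, SE). The gene rplp2 (chromosome 6, 49510152 to 49511900) had 493, 389.5 and 419 CPM in amputated replicates 1, 2 and 3, against 594, 477 and 501 CPM in uncut replicates 1, 2 and 3. Only amputated replicate 1 reached into the uncut range. The log2 fold change of rplp2 was −0.27 ± 0.11 (SE; edgeR adjusted p = 0.0651, and 0.00274 with the block).

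The second row named rpl37 (chromosome 2, 50126492 to 50132558) held little. It had 67, 76 and 65 counts in amputated replicates 1, 2 and 3, and 51, 84 and 28 counts in uncut replicates 1, 2 and 3. The other rpl37 row, on chromosome 21, averaged 431 ± 20.2 CPM after amputation and 481 ± 66.8 CPM in uncut folds (SD, n = 3 each; log2 fold change −0.16 ± 0.10, SE). The authors' table gives COA1 as the human ortholog of the second row, so that row may not be a ribosomal protein gene. How reads of near-identical copies were split between rows, the sources used here do not state.

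The genes are scattered over the genome, on 24 chromosomes with at most 7 on one, chromosome 3. Only 2 pairs lie within 50000 bases of each other. The genes rpl3 and rpl27 are 22602 bases apart on chromosome 3, with log2 fold changes of −0.01 and −0.14, and rplp2 and rps26l are 10153 bases apart on chromosome 6, with −0.27 and −0.12. Within both pairs the values lay farther apart than the interquartile range of the family.

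Of 11 ribosomal protein genes found outside the name rule, 10 were not called, where 40.4% of all tested genes were called. The 1 called was rpl7l1, a relative of rpl7 whose human form belongs to precursors of the large subunit. It had 56.5, 60.3 and 53.7 CPM in amputated replicates 1, 2 and 3, against 31.4, 27.9 and 26.9 CPM in uncut replicates 1, 2 and 3. Every amputated library lay far above every uncut one, and rpl7l1 rose by 0.98 ± 0.09 (SE; edgeR adjusted p = 7.8e-06). The gene rpl7 itself was at −0.09 ± 0.10.

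Of the other 10, faua, a fusion of a ubiquitin-like protein with a 40S protein, was at −0.19 ± 0.10, and gnb2l1, which encodes the 40S scaffold protein Rack1, at −0.15 ± 0.10. The values of rps27.1 and rps27.2 were −0.20 and −0.26, those of rplp2l and rpl5b −0.12 and −0.07, and that of rpl22l1 −0.26. The weakly counted faub and rps8b were at 0.29 and 0.02. With the replicate block 4 of the 11 were called lower, rps27.2, rpl22l1, faua and rps27.1, where edgeR called 22.5% of all tested genes lower. Among further rows that carry ribosomal protein names in capitals, added after the values were seen, RPL37A was at −0.23, RPL41 at −0.05 and RPS27L at −0.05. None of these 3 was called, and with the block RPL37A was called lower.

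Where a ribosomal protein gene has a second copy, or a relative as rpl7 has in rpl7l1, the split of counts within the pair was compared. This needs no scaling between libraries. Counts are not corrected for length here, so the split is read across libraries and not as a ratio of transcripts. The gene rpl5a held 56.5%, 57.2% and 56.2% of the counts of rpl5a and rpl5b in amputated replicates 1, 2 and 3, against 64.0%, 59.1% and 59.4% in uncut replicates 1, 2 and 3. Its share was lower in every amputated library, also with uncut replicate 1 set aside.

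The gene rplp2 held 43.1 ± 1.32% of the counts of rplp2 and rplp2l after amputation and 45.8 ± 0.579% in uncut folds (SD, n = 3 each). The 2 genes rps26 and rps26l, both in the family described here, kept a more even split: rps26 held 30.9 ± 0.783% after amputation and 32.1 ± 0.453% in uncut folds, and the groups overlapped. The groups did not overlap in 4 of the pairs reported here: rpl5a with rpl5b, rplp2 with rplp2l, rpl7 with rpl7l1, and faub with faua. Each of the 4 had an exact permutation p of 0.1, the smallest that 3 against 3 allows, and 0.2 after Benjamini-Hochberg adjustment over the 10 pairs compared, so none passed.

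**Figure D4:**
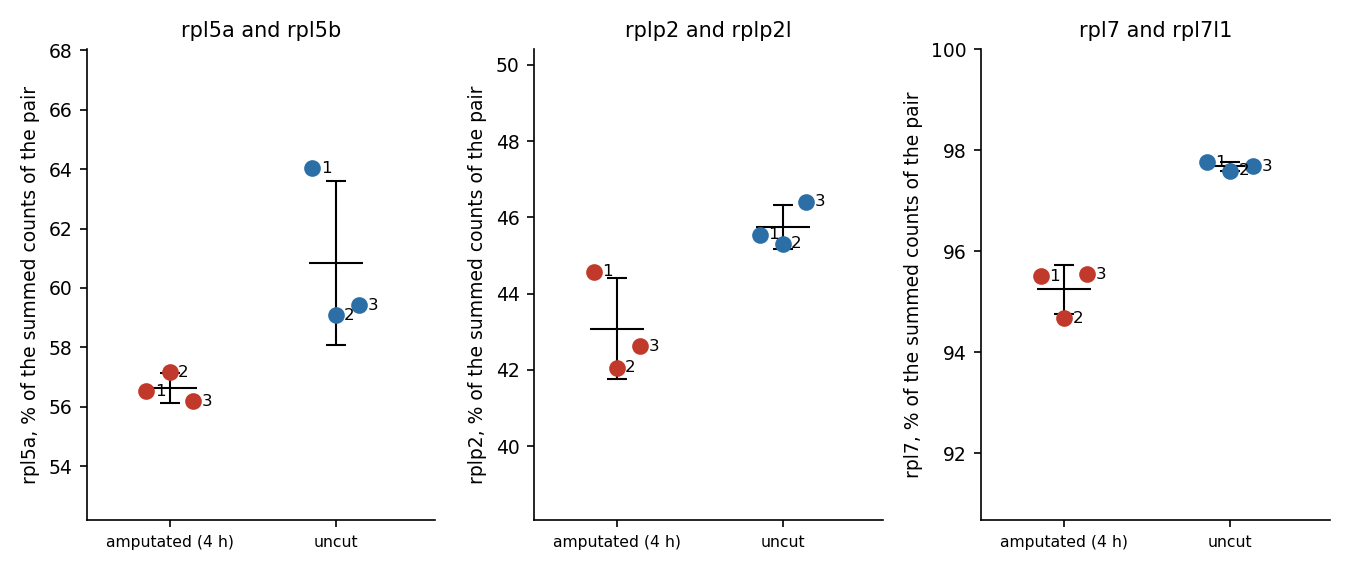
Percent of a gene pair's summed counts held by the first gene, for 3 pairs, with 1 dot per library, its replicate number, and bars for the mean and SD of the 3 libraries of a group. The vertical axes do not start at 0. Groups do not overlap in any of the 3 panels, and uncut replicate 1 lies apart in the pair of rpl5a (64.0%).

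Genes that build the ribosome rose. Of 70 nucleolar assembly factors tested, 69 rose and none fell, where edgeR called 20.8% of all tested genes higher and 19.6% lower. The factors had a median log2 fold change of 0.96 and an interquartile range of 0.372. Among them npm1a, a nucleolar chaperone gene, averaged 259 ± 23.0 CPM after amputation and 83.0 ± 6.77 CPM in uncut folds (SD, n = 3 each), and rose by 1.64 ± 0.09 (SE; edgeR adjusted p = 3.3e-07). The others with the smallest adjusted p rose too: mybbp1a by 1.28 ± 0.09, rrp12 by 1.16 ± 0.08 and pwp2h by 1.33 ± 0.10. In summed counts, the assembly factors stood at 9.14, 11.3 and 9.46 per 100 ribosomal protein counts in amputated replicates 1, 2 and 3, against 4.62, 5.29 and 4.89 in uncut replicates 1, 2 and 3. No library of one group reached the other, and the ratio of the means was 2.02 (exact permutation p = 0.1, the smallest possible). This comparison too needs no scaling between libraries.

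Some assembly proteins serve 1 ribosomal protein, and 3 such couples are set side by side here. They do not stand for the whole list. The genes grwd1 and heatr3 were named for small adjusted p values, and tsr2 after its value was seen. Chaperone genes that rose less or were not called are given below without partners. In yeast and human cells, the protein of grwd1 guards that of rpl3. The gene grwd1 averaged 50.6 ± 5.11 CPM after amputation and 21.3 ± 1.27 CPM in uncut folds (SD, n = 3 each) and rose by 1.24 ± 0.10 (SE), while rpl3 was at −0.01 ± 0.10. The gene tsr2, whose protein guards that of rps26, rose by 1.03 ± 0.13, while rps26 was at −0.21 ± 0.08. The gene heatr3, whose protein is needed to import that of rpl5, rose by 0.82 ± 0.10, while rpl5a was at −0.35 ± 0.15. That value of rpl5a rests mainly on uncut replicate 1, as given above, and its pair gene rpl5b was at −0.07. In the whole list of such chaperones and their like, 11 of 14 rose and none fell, against the same 20.8% of all tested genes higher and 19.6% lower. Among them hgh1 rose by 1.504 ± 0.136, whose yeast form helps to fold elongation factor eEF2. The genes bccip and aamp rose less, by 0.45 and 0.39. The 3 not called were pdcd2 at 0.345, naca at −0.11 and btf3 at −0.12. The lists overlap: grwd1, tsr2 and ltv1 are also counted among the assembly factors. The genes nap1l1, naca and btf3 are also counted in the list of TOP mRNAs below.

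Mitochondrial ribosomal protein genes, which encode the other ribosome of the cell, rose as well. Of 76 tested, 69 rose and none fell, where 20.8% of all tested genes were higher and 19.6% lower, and they had a median log2 fold change of 0.58 and an interquartile range of 0.228. The example with the smallest adjusted p, mrpl12, averaged 39.1 ± 0.668 CPM after amputation and 20.1 ± 0.159 CPM in uncut folds (SD, n = 3 each). The next were mrps18b, mrpl46 and mrpl9, which rose by 1.02, 1.11 and 0.86. Their summed counts per 100 cytosolic ribosomal protein counts were 2.30 ± 0.120 after amputation and 1.45 ± 0.102 in uncut folds (exact permutation p = 0.1, the smallest possible, with no overlap). The spread among the cytosolic genes, 0.067, was smaller than among the mitochondrial ones, and no test of that difference was made. The mitochondrial genes had far fewer counts, and counting error widens their range.

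**Figure D5:**
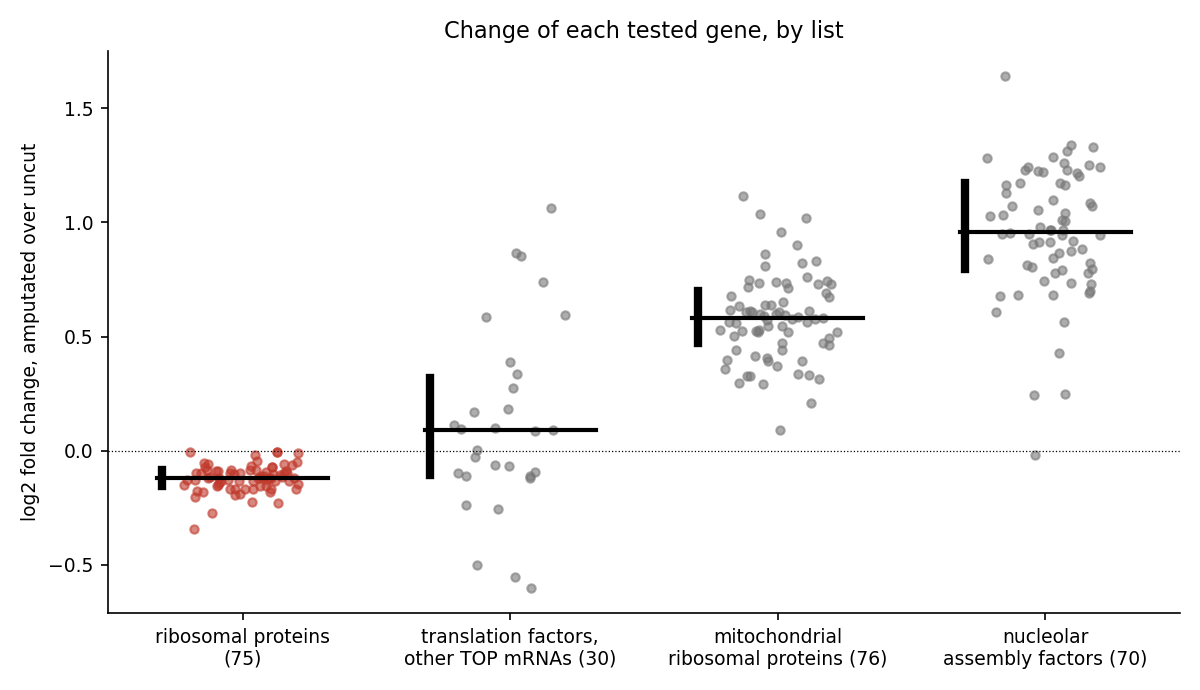
Log2 fold change, amputated over uncut, of every tested gene in 4 lists, with the median as a horizontal line and the interquartile range as a vertical bar. The 75 cytosolic ribosomal protein genes form a narrow band at −0.12 (0.14 with library totals alone), while translation factors and other TOP mRNAs scatter around 0.09 and mitochondrial ribosomal protein genes (0.58) and nucleolar assembly factors (0.96) lie above 0.

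A list of translation factors and of other genes known for TOP mRNAs, such as tpt1, naca and nap1l1, held values on both sides of 0. Of 30 tested, 8 rose and 3 fell, so that 36.7% were called, near the 40.4% of all tested genes. With library totals alone, 16 were higher and 2 lower, where 38.1% of all tested genes were higher and 9.16% lower. Among those with the most counts were eef1a1l2 at −0.06 ± 0.11, eef2b at −0.07 ± 0.10, tpt1 at −0.09 ± 0.10 and pabpc1a at −0.10 ± 0.09 (SE), none of them called. The 4 genes of the list with the smallest adjusted p all rose: eif5a2 by 0.86 ± 0.08, eef2a.1 by 1.06 ± 0.10, nap1l1 by 0.85 ± 0.10 and eif4bb by 0.74 ± 0.09. The 3 that fell were pabpc1b, a poly(A) binding gene, by 0.60 ± 0.10, eef1da by 0.50 ± 0.09 and eif4ba by 0.25 ± 0.08.

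A further list held S6 kinase genes (rps6ka and rps6kb), genes of the mTOR pathway, which controls TOP mRNAs, and larp and Myc genes. Of its 31 tested genes, 9 were higher and 8 lower, where 20.8% of all tested genes were higher and 19.6% lower. These counts are not those of the mTOR pathway alone. With library totals alone 17 were higher and 5 lower, beside 38.1% and 9.16% of all tested genes. The gene mtor itself was not called (−0.07 ± 0.10, SE). The S6 kinase gene rps6kb1a rose by 0.97 ± 0.13 and mycn, a Myc gene, by 1.00 ± 0.10 (SE). Other S6 kinase genes went both ways: rps6ka1, rps6ka3b and rps6kb1b rose by 0.39, 0.575 and 0.475, while rps6ka5 and rps6kal fell by 0.953 and 0.243. The Myc genes myca, mych and mycb were not called, at 0.184, −0.027 and −0.208. The gene larp1, whose protein binds the TOP start, rose by 0.59 ± 0.08, while its relative larp1b fell by 0.33 ± 0.07. The mTOR inhibitor gene deptor fell by 1.12 ± 0.10, and eif4ebp3, which encodes an inhibitor of cap-dependent translation, by 1.13 ± 0.15.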

How the data were processed

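Per the labels' protocols, fin fold RNA was extracted in Trizol and sequenced from TruSeq RNA libraries, a kit that does not mark strand. The submitters' processing notes list TopHat, Cufflinks and DESeq2, without versions or roles. Which of them counted reads, and on what genome build and annotation, no source used here gives. The authors deposited raw counts per gene for 6 libraries, and beside them a log2 fold change (uncut over amputated) and an adjusted p-value. All per-sample columns used were matched to samples by name.

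The deposited counts of all genes entered edgeR 4.0.16 under R 4.3.3 (filterByExpr with a minimum count of 10 and a minimum total of 15, TMM, glmQLFit and glmQLFTest, no covariate, Benjamini-Hochberg over 17883 genes, threshold 0.05). Standard errors were taken as the size of the log2 fold change divided by the root of the F statistic, and intervals use the t quantile of the fit. CPM values are counts over TMM-scaled library sizes, where 1 count was worth 0.0436 to 0.0971 CPM. Intervals of shares cover counting error only, since reads carry no molecular identifiers. Single values per library were compared by exact permutation. Alternatives were DESeq2 1.42.0, its size factors, library totals, the family's own total, no filter, the replicate block and each library left out. The block and the left-out libraries on the family's own total were chosen after seeing the data.

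In a simulation of amputated against uncut folds with 17723 genes, 50%, 80%, 96% and 100% of 50 genes each were called at log2 changes of 0.5, 1, 2 and 3, with 11 false calls. The simulated counts held no shift shared by the genes of a library. The ribosomal protein genes changed by less than 0.5, so these rates do not say how often such changes would be called.

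Deviations from the group means correlated at 0.222, 0.199 and 0.153 between same-numbered libraries, so the numbers were treated as pairs. This pairing comes from the data, as the labels give only the numbers. Replicates differed by more than sampling noise (chi-square per degree of freedom 4.45 to 15.6).

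The ribosomal protein genes and all lists were chosen with earlier results of these data known, and no list was tested. Genes named were the 6 with the most counts, the 6 highest and 6 lowest changes, those with known roles, up to 4 per other list by smallest adjusted p, and further genes chosen after their values were seen: rps26l, rpl27, rpl37, eef1a1l2, eef2b, tpt1, pabpc1a, pabpc1b, eef1da, eif4ba, tsr2, larp1, larp1b, mtor, rpl7, capital-named rows and the gene pairs. Some genes are counted in the totals but not reported here.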

Additional observations from a re-analysis of the deposited data

How the results depend on the processing

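The count of ribosomal protein genes called depended on the fit. None was higher with TMM, DESeq2's size factors, DESeq2, no filter on low counts, the replicate block, an adjusted p under 0.01, or any library left out, and 6 were higher with library totals alone. None was lower with TMM, 1 with DESeq2 (rplp2), 2 with no filter (rpl5a and rplp2), 7 with the replicate block and 1 with the block on the family's own total (rpl5a, chosen after seeing the data). With a library left out, 0 to 1 were lower: rplp2 without amputated replicate 1 and rpl5a without uncut replicate 2. The median log2 fold change was −0.12, and 0.14 with library totals alone, where rpl10a, rps9, rpl4, rpl3, rps23 and rpl15 were called higher at 0.25, 0.25, 0.25, 0.25, 0.24 and 0.21 in place of values just below 0. It ran between −0.18 and −0.00 with a library left out, and was −0.00 without uncut replicate 1. The interquartile range stayed between 0.055 and 0.091 under every fit for which it was computed. The difference in share was 0.588 points, 0.409 to 0.908 with a library left out, −0.467 against TMM-scaled sizes, and 0.588 as the mean of the paired differences of the replicate block (exact sign-flip p = 0.25, the smallest possible). The negative value against TMM-scaled sizes rested mainly on uncut replicate 1. The cause of these shifts was not tested. All alternatives planned were run. For all but the second rpl37 row, the mean count was at least 3058, so counting error was small beside the spread between libraries.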
